A study of Mus musculus with 45 samples.

Results

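Antibody light chain variable (V) segments were followed across 45 libraries of mouse follicular B cells. They were taken as every gene symbol that begins with Igkv or Iglv and a number and that reached at least 1 TPM (transcripts per 1e+06 transcripts, a level already divided by transcript length) in at least 3 libraries. The rule kept 101 of 106 light chain V symbols, out of 30317 symbols in all. Of these members, 98 were kappa segments on chromosome 6 and 3 were lambda segments on chromosome 16. The members were thus chosen by their own TPM values, so summed levels, ratios and evenness are given as descriptions with no test.

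An antibody has a pair of heavy and a pair of light chains, and a light chain is either kappa or lambda. Each developing B cell joins a V segment of a light chain locus to a J segment by recombination, so a mature B cell makes a single light chain and carries it in its receptor. The V segment RNA in a population therefore reports both how much light chain RNA the cells make and which segments the cells of that population had joined. Plasma cells, which form from activated B cells under the transcription factor Blimp1, secrete antibody and are known for very high levels of light and heavy chain RNA.

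The cells were follicular B cells from the spleens of B6.Blimp1GFP/+ mice, in which 1 Blimp1 allele carries GFP, so every group shared that allele. They were cultured on OP9 bone marrow stroma (21 libraries) or on OP9-DL1, the same stroma carrying the Notch ligand Delta-like 1 (24 libraries, here DL1). On each stroma, viable cells were sorted after 68 h without stimulus, or after 20, 44 and 68 h with lipopolysaccharide (LPS, a ligand of TLR4) or with anti-IgM F(ab')2 (which crosslinks the B cell receptor), each at 10 µg/mL. The last of the 15 groups held Blimp1+ cells, isolated from LPS cultures on DL1 at a time that the labels do not give. Every group had 3 libraries. Nothing in the labels says that replicates came from separate mice or cultures, so p-values measure only the spread between these libraries, which may be technical. RNA was polyA selected and amplified, and the labels say no more of the gate than that viable cells were sorted.

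Depth was 3.07 M to 29.1 M estimated reads per library (M for 1e+06), of which 418 to 72011 fell on kappa V segments. All 9 B cell markers on the list were above 0 in every library. In 10 libraries Actb, the cytoskeletal actin gene, was at 10000 TPM or more: the 3 of DL1 with LPS at 20 h, the 3 of OP9 with anti-IgM at 20 h, and replicate 3 of OP9 unstimulated, OP9 with LPS at 68 h, DL1 with LPS at 68 h and OP9 with anti-IgM at 68 h. These are called the high-Actb libraries. They had a kappa to lambda V ratio of 1.22 to 3.10 and a light to heavy V ratio of 5.56 to 27.9, against 2.36 to 9.83 and 1.91 to 5.25 in the other 35. Differences that rest on them are given with and without them where both groups keep other libraries. At 20 h no such value exists, since with each stimulus all 3 libraries of 1 stroma and none of the other are of this class, so class and stroma cannot be told apart in any 20 h comparison of the stromas. Their part in the other differences was not tested.

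The reference V exons of the most abundant segment at each locus and of a close relative are printed to show how alike the segments are, since reads must be assigned among near copies. They come from GENCODE M21 and the GRCm38 genome, on the minus strand, printed 5′ to 3′, with the bases that differ within each pair in capitals. Iglv1 and Iglv2 differ at 9 of the 305 bases of the exon (97.0% identity), and the first 300 bases of each are printed, from chr16:19085022-19085321 and chr16:19260406-19260705. Igkv6-15 lies at chr6:70406469-70406766 and Igkv6-23 at chr6:70260409-70260706, and 16 of 298 bases differ (94.6% identity).
Iglv1: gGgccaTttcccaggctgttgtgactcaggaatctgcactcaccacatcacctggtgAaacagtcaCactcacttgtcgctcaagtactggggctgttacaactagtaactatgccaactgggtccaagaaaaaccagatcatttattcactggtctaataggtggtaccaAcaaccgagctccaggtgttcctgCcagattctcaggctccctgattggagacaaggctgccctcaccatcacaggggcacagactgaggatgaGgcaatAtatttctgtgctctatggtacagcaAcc
Iglv2: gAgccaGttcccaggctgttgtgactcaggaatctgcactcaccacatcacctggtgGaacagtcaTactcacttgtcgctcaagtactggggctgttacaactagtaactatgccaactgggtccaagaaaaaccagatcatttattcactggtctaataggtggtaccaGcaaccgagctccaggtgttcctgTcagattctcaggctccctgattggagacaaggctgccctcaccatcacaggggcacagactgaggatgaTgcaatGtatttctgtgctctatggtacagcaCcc
Igkv6-15: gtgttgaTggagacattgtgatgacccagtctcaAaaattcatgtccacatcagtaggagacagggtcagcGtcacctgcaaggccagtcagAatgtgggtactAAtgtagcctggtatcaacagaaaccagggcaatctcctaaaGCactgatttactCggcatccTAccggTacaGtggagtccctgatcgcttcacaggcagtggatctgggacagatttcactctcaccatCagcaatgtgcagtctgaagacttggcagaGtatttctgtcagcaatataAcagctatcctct
Igkv6-23: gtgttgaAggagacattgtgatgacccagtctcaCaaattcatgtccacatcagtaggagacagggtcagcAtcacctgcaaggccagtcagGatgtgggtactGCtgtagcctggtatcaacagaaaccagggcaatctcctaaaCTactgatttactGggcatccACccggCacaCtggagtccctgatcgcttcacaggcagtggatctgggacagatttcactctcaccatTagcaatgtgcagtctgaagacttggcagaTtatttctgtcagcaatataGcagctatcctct

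Near copies were common among the members. For 42 of the 101 the closest other member was at least 95% identical over the V exon. Set against all light chain V symbols of GENCODE M21, members or not, 26 shared no window of 50 bases with another. Values of single segments are therefore estimates that depend on how the quantifier divided shared reads. Iglv1 and Iglv2 are such a pair. Iglv1 averaged 2604 TPM over the 45 libraries (62.9 to 15750), Iglv3 averaged 166, and Iglv2 was listed at 0 in 42 libraries and reached at most 11.2 TPM.

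Of the members, 40 reached 1 TPM in all 45 libraries, 28 in 30 to 44, 13 in 15 to 29, 12 in 6 to 14 and 8 in 3 to 5. Just inside the threshold, with 3 libraries each, were Igkv12-98 (highest value 14.9 TPM), Igkv13-87 (4.73), Igkv14-100 (28.8), Igkv8-16 (8.27) and Iglv2 (11.2). Just outside were Igkv17-121 (2 libraries, highest value 11.4 TPM), Igkv1-131 and Igkv6-29 (1 library each, 3.99 and 5.79), with Igkv17-134 and Igkv2-95-2 listed at 0 throughout. Of the members, 5 are annotated by RefSeq as pseudogenes: Igkv14-126, Igkv12-47, Igkv1-115, Igkv2-116 and Igkv13-87, with mean levels of 111.5, 106.8, 17.6, 17.5 and 0.255 TPM. GENCODE M21 also lists 5, with Igkv4-73 (18.9 TPM) in place of Igkv14-126.

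Light chain V segments made up 0.0781% to 7.79% of the transcripts in a library, with a median of 1.00%. The Blimp1+ libraries held 7.76%, 7.79% and 7.29%, a mean of 7.61 ± 0.277% (SD, n = 3), and all 3 lay above every other library. Unstimulated OP9 cells held the least, with 0.0781%, 0.513% and 0.420%. Between these groups the means differed 22.6-fold, and among the other 14 groups 3.90-fold, from 0.337% in unstimulated OP9 cells to 1.31% in unstimulated DL1 cells. The unstimulated DL1 libraries, at 1.18%, 1.35% and 1.41%, did not overlap with unstimulated OP9.

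With LPS the share lay between 0.416% and 1.32% on both stromas. OP9 libraries with LPS held 0.869%, 0.790% and 0.657% at 20 h, 0.691%, 0.640% and 0.713% at 44 h, and 1.32%, 1.29% and 0.934% at 68 h. DL1 libraries with LPS held 1.06%, 0.869% and 1.04% at 20 h, 0.737%, 0.780% and 0.739% at 44 h, and 1.00%, 1.03% and 0.416% at 68 h. DL1 lay above OP9 without overlap at 44 h. At 20 h the lowest DL1 and the highest OP9 library were both at 0.869%, and at 68 h the stromas overlapped, although DL1 was lower without the high-Actb libraries (0.779 times OP9, 2 libraries each). In scaled TPM, which are TPM divided by a size factor for each library, DL1 was lower at 68 h with all libraries kept. The sums were 6209 to 8835 on DL1 and 11205 to 11897 on OP9. At 20 h and 44 h the scaled sums were higher on DL1, without overlap. Set against unstimulated cells on DL1, the share with LPS at 68 h was lower without overlap, 0.620 times, or 0.772 times without the high-Actb library.

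With anti-IgM the order of the stromas changed with time. OP9 libraries with anti-IgM held 0.422%, 0.794% and 0.738% at 20 h, 1.19%, 1.16% and 1.09% at 44 h, and 1.07%, 1.43% and 0.360% at 68 h. DL1 libraries with anti-IgM held 1.22%, 1.08% and 1.20% at 20 h, 0.846%, 0.901% and 0.897% at 44 h, and 1.35%, 1.07% and 1.28% at 68 h. DL1 was higher than OP9 without overlap at 20 h, where all 3 OP9 libraries are high-Actb, lower without overlap at 44 h, and overlapped with it at 68 h.

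**Figure D1:**
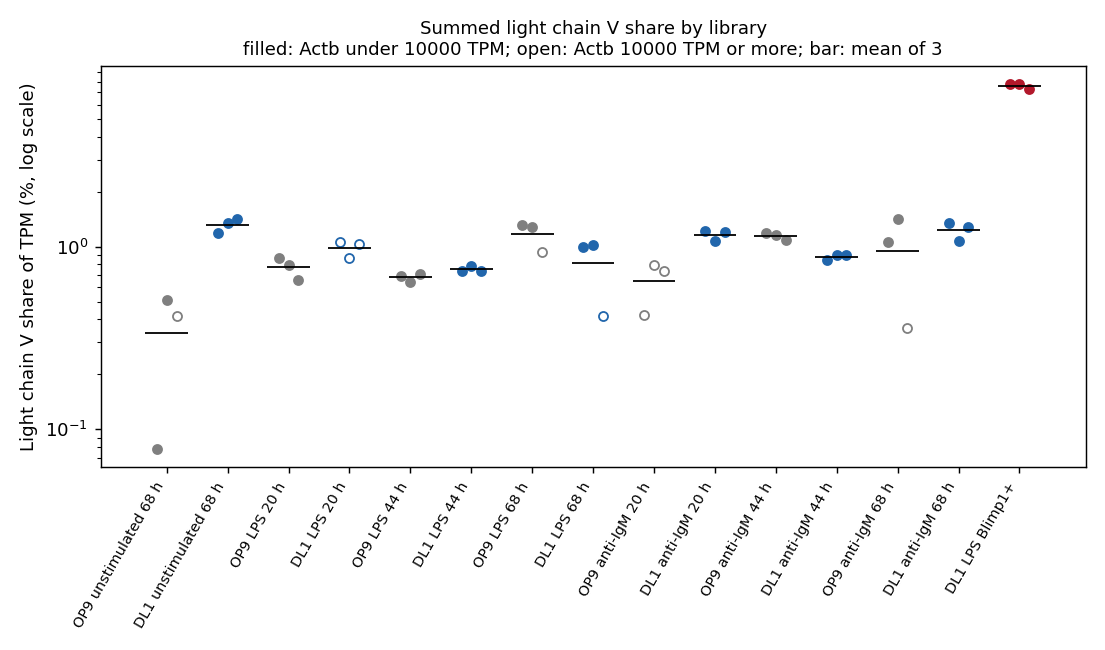
Summed light chain V segment level as a percent of all transcripts (log axis) for each library, by group (OP9 grey, DL1 blue, Blimp1+ red), with the group mean as a bar and open points for the high-Actb libraries. The 3 Blimp1+ libraries sit at 7.29% to 7.79%, above all others, and the lowest library, an unstimulated OP9 one, sits at 0.0781%.

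The Blimp1+ sort was compared with all viable cells of DL1 cultures with LPS at 68 h. Of the 101 members, 62 rose and 0 fell, where 2.84% of all 15614 genes tested were called (2.56% higher, 0.282% lower). The median log2 fold change of the members was 3.53. The summed share was 9.33 times that of the culture, or 7.50 times without its high-Actb library. The count was 47 to 63 under the other settings, 58 without the high-Actb libraries, and 54 to 63 when a library was left out. Some members passed the threshold of the rule only through the Blimp1+ libraries, so the count describes the members and is no support for their direction.

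The increases covered the abundant segments of both loci. Values of single members are scaled TPM, which are TPM divided by a size factor for each library. Iglv1 had 17869 ± 1409 (SD, n = 3) in Blimp1+ cells and 1836 ± 596 in the LPS culture, a log2 fold change of 3.33 (SE 0.59, limma adjusted p = 0.00027). Igkv6-15 had 8520 ± 1008 against 992 ± 354 (log2 fold change 3.17, SE 0.46, adjusted p = 1.1e-05). Igkv8-30 rose from 243 ± 39.9 to 4691 ± 117 (log2 fold change 4.28, SE 0.57, adjusted p = 2e-06). All 10 kappa segments with the highest mean level rose, by 3.10 to 4.28 on the log2 scale, as did Iglv3 (log2 fold change 3.33). Iglv2 had 3.68 ± 3.19 against libraries listed at 0 and was not called (adjusted p = 0.074).

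The largest increases were of segments that were rare in the LPS culture. Igkv2-116, 1 of the annotated pseudogenes, had 286, 175 and 273 scaled TPM in Blimp1+ cells and 0, 11.1 and 5.19 in the culture (log2 fold change 5.83, SE 1.04, adjusted p = 0.00031), a call lost with a pseudocount of 0.1. Igkv4-73, a pseudogene in GENCODE but not in RefSeq, had 185, 205 and 179 against 5.09, 6.99 and 2.01 (log2 fold change 5.18, SE 0.70, adjusted p = 3e-06). Igkv4-69 had 148, 126 and 252 against 8.76, 11.2 and 0 (log2 fold change 5.10, SE 0.96, adjusted p = 0.00069). In each of these segments every Blimp1+ library lay far above every culture library. Igkv4-71 had 545, 513 and 493 against 28.2, 39.0 and 0 (log2 fold change 5.62, SE 1.26, adjusted p = 0.0056), a call also lost with a pseudocount of 0.1, and without the high-Actb library of the culture.

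Other members were higher in Blimp1+ cells on average but were not called, with a spread that limma estimated over all 15 groups. Igkv12-89 averaged 259 scaled TPM against 31.4 (adjusted p = 0.11) and Igkv1-115, another annotated pseudogene, 156 against 10.7 (adjusted p = 0.051). In Blimp1+ cells 79 members averaged 10 scaled TPM or more, which included 61 of the 62 called.

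Against DL1 cultures with LPS at 44 h, 72 members rose and 0 fell (12% of all genes called, 7.02% higher and 5.03% lower). Both comparisons use the same Blimp1+ libraries. The 60 members called in both were 96.8% of those called against 68 h and 83.3% of those called against 44 h. Igkv3-3 had 42.1, 62.4 and 56.1 scaled TPM in Blimp1+ cells and was listed at 0 in all 3 libraries at 44 h. Igkv8-28 had 234, 219 and 114 against 25.5, 0 and 0 (log2 fold change 5.92, SE 1.87, adjusted p = 0.031). That call was lost with TPM as deposited, a pseudocount of 0.1 and no filter, and the segment was not called against 68 h (adjusted p = 0.41).

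**Figure D2:**
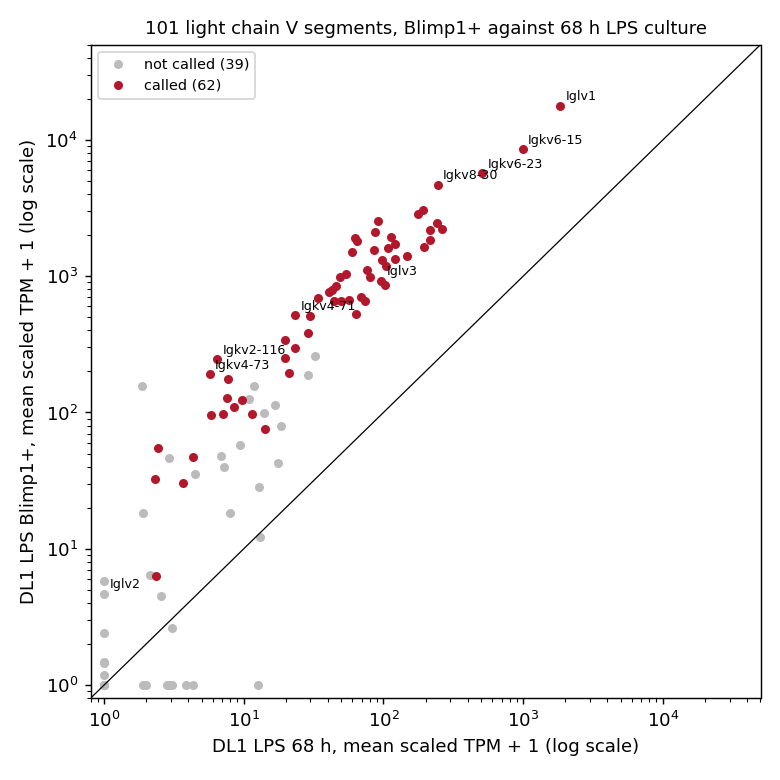
Mean scaled TPM (TPM divided by a size factor for each library) of each light chain V segment in Blimp1+ cells against DL1 cultures with LPS at 68 h, both axes log scale after adding 1, with the 62 called segments coloured and a line of equal level. Most segments lie above the line, with Iglv1 at 17869 against 1836 at the upper right.

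Genes that work with the light chain were compared between the Blimp1+ sort and DL1 cultures with LPS at 68 h. Some rose in the Blimp1+ sort, others were not called and Ighd fell. The kappa constant segment Igkc rose from 6806 ± 1346 to 81157 ± 3800 scaled TPM (log2 fold change 3.59, SE 0.34, adjusted p = 3e-09), and Iglc2, a lambda constant segment among others, from 1156 ± 61.2 to 5109 ± 269 (2.14, SE 0.44, adjusted p = 0.0019). Ighm, the heavy chain constant gene of IgM, rose by 3.65 on the log2 scale and Ighd, that of IgD, fell by 2.46. Igj, which encodes the chain that joins secreted IgM, rose by 9.81, and Xbp1 and Prdm1 (the gene of Blimp1) rose by 3.89 and 3.73. Since the cells were isolated as Blimp1+, the rise of Prdm1 follows from the sort and is no separate result. Among 14 factors that act on light chain promoters and enhancers, Pou2af1 and Irf4 rose (1.74 and 2.04) and 0 fell. Cd79a and Cd79b, which carry the receptor signal, had log2 fold changes of 1.00 and 0.33 and were not called. Against DL1 cultures with LPS at 44 h, 3 of the 4 genes Ighm, Ighd, Cd79a and Cd79b rose and 0 fell. Ighd was thus not called lower against that reference. The 7 plasma cell markers, of which Prdm1 is a member, summed to 2911 to 3242 TPM in Blimp1+ libraries and to 44.8 to 704 in all others.

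The Notch ligand was examined at each stimulus and time. Without stimulus at 68 h, 46 members were higher on DL1 than on OP9 and 0 were lower, where 26.5% of all genes were called (8.84% higher, 17.6% lower). The median log2 fold change of all 101 members was 1.51, against -0.19 over all genes tested. Igkv6-23 had 793, 748 and 718 scaled TPM on DL1 and 25.6, 234 and 190 on OP9 (log2 fold change 2.83, SE 0.49, adjusted p = 3.2e-05). Igkv9-120 had 98.8, 188 and 190 against 0, 51.8 and 78.2 (3.25, SE 0.76, adjusted p = 0.0013), and Igkv3-1 had 14.7, 33.3 and 32.3 against 5.37, 0 and 3.10 (3.14, SE 0.72, adjusted p = 0.0011). In all 3 segments every DL1 library lay above every OP9 library.

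B cell RNA as a whole differed between the unstimulated groups. The summed B cell markers were 2095, 12460 and 6029 TPM in the OP9 libraries and 30735 to 40150 on DL1, and the 15 stroma markers summed to 18053, 17193 and 1248 TPM in the OP9 libraries against 31.9 to 782 in the other groups. Of the stroma markers, 0, 1 and 0 were listed at 0 in those OP9 libraries. Fewer B cells and less RNA per B cell cannot be told apart in bulk RNA, and the part of these markers in the result was not tested. Igkc (log2 fold change 1.54), Iglc2 (1.56), Ighm (2.07), Cd79a (1.99) and 8 of 14 promoter and enhancer factors were also higher on DL1. Without replicate 1 of unstimulated OP9, 17 members were called in place of 46, and without the high-Actb libraries 51.

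With LPS at 20 h, 3 members were higher on DL1 and 2 lower (8.81% of all genes called, 4.4% higher and 4.41% lower). Igkv8-30 had 631, 555 and 609 scaled TPM on DL1 and 132, 136 and 126 on OP9 (log2 fold change 2.18, SE 0.57, adjusted p = 0.012). Igkv6-15 had 2183, 1319 and 2330 against 794, 545 and 662 (1.52, SE 0.46, adjusted p = 0.032), and Igkv5-43 had 184, 306 and 311 against 43.3, 83.1 and 58.7 (2.10, SE 0.55, adjusted p = 0.014). Igkv8-18 was lower, with 0, 7.73 and 9.84 against 34.8, 21.3 and 28.1 (log2 fold change -2.64, SE 0.67, adjusted p = 0.011). The groups did not overlap in any of these 4. All 3 DL1 libraries here are high-Actb libraries and no OP9 library is, so the class and the stroma cannot be told apart at this time. Without replicate 1 of OP9 with LPS at 20 h, 3 members were called in place of 5, and the Igkv6-15 call was lost with TPM as deposited and with the authors' deposited log2 table.

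At later times with LPS no member was called. At 44 h limma called 0 of 101 (0.16% of all genes called, 0.141% higher and 0.0192% lower), with 3 at an unadjusted p below 0.05, and at 68 h 0 (0.064% of all genes, 0.0192% higher and 0.0448% lower), with 5. Both counts were 0 under all the other settings run.

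With anti-IgM at 20 h, 17 members were higher on DL1 and 1 was lower (20.5% of all genes called, 10.2% higher and 10.3% lower). Igkv4-70 had 285, 124 and 125 scaled TPM on DL1 and 30.7, 44.1 and 8.46 on OP9 (log2 fold change 2.79, SE 0.53, adjusted p = 0.0014). Igkv4-71 had 15.8, 24.9 and 18.1 against 0, 0.118 and 0 (4.29, SE 1.26, adjusted p = 0.019). Igkv4-58 had 29.8, 17.2 and 9.09 on DL1 and was listed at 0 in all 3 OP9 libraries. The calls of Igkv4-71 and Igkv4-58 were lost when single libraries were left out, and that of Igkv4-70 held under every setting run. These segments, of the large Igkv4 family, did not overlap between the stromas. All 3 OP9 libraries are high-Actb libraries and no DL1 library is. The count fell to 7 without replicate 1 and 10 without replicate 2 of DL1 with anti-IgM at 20 h, and to 10 without replicate 1 and 9 without replicate 3 of OP9 with anti-IgM at 20 h.

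At 44 h with anti-IgM limma called 0 members (0.897% of all genes called, 0.538% higher and 0.359% lower), with 6 at an unadjusted p below 0.05, and 0 under the other settings run. At 68 h it called 0 (1.73% of all genes, 1.11% higher and 0.621% lower), with 18 at an unadjusted p below 0.05, and 1 member without replicate 2 of OP9 with anti-IgM at 68 h.

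Stimulated cells at 68 h were set against unstimulated cells on the same stroma, so both stimuli share each stroma's controls. On OP9, LPS raised 40 members and lowered 0 (30.5% of all genes called, 11.4% higher and 19.1% lower). Igkv14-111 had 394, 343 and 163 scaled TPM with LPS and 13.2, 33.1 and 40.2 without (log2 fold change 3.38, SE 0.36, adjusted p = 2.6e-09). Iglv1 had 3296, 2502 and 4890 against 59.3, 515 and 1980 (3.12, SE 0.59, adjusted p = 6.2e-05). No stimulated library overlapped with an unstimulated one in either segment. Without replicate 1 of unstimulated OP9 the count was 19, and without the high-Actb libraries 43.

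With anti-IgM on OP9, 35 members rose and 0 fell (23.9% of all genes called, 8.35% higher and 15.5% lower). Igkv14-111 had 200, 235 and 152 scaled TPM against the same unstimulated libraries (log2 fold change 2.84, SE 0.36, adjusted p = 1.4e-07). Igkv2-109 had 38.3, 32.3 and 22.3 against 0, 3.00 and 19.1 (2.86, SE 0.56, adjusted p = 0.00015), with no overlap. The count was 11 without replicate 1 of unstimulated OP9, 23 without replicate 2 of OP9 with anti-IgM at 68 h, 20 with the authors' deposited log2 table and 51 without the high-Actb libraries. The stroma and B cell marker sums given above for unstimulated OP9 apply to both OP9 comparisons.

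On DL1, where unstimulated cells already had a high share, the stimuli changed few members. With LPS limma called 0 (8.1% of all genes called, 5.54% higher and 2.56% lower), with 14 at an unadjusted p below 0.05, and a median log2 fold change of -0.44 over the members. Without the high-Actb libraries 3 were called, all higher with LPS, while the 1 call made with TPM as deposited was lower. With anti-IgM 4 rose and 0 fell (9.52% of all genes called, 6.07% higher and 3.46% lower). Igkv6-17 had 253, 321 and 323 scaled TPM with anti-IgM and 104, 126 and 136 without (log2 fold change 1.28, SE 0.42, adjusted p = 0.048). Igkv1-135 had 254, 312 and 328 against 90.9, 149 and 142 (1.24, SE 0.40, adjusted p = 0.042), again with no overlap. The other 2 were Igkv2-109 (log2 fold change 2.02) and Igkv2-116 (3.35). The number called was 0 to 3 when a library was left out, 0 with the authors' deposited log2 table and 8 without the high-Actb libraries. Whether the effect of a stimulus on the members differed between the stromas was not tested.

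The kappa to lambda ratio, the summed kappa V level over the summed lambda V level, ranged from 1.22 to 9.83 over libraries. Group means ran from 2.18 in OP9 cells with anti-IgM at 20 h to 9.54 in DL1 cells with anti-IgM at 68 h, a spread of 4.37-fold, and 3.35-fold without the high-Actb libraries. In every group the kappa V sum exceeded the lambda V sum. Most of the lambda sum was Iglv1. The fewest estimated lambda reads were 55.8, beside 418 kappa reads, in replicate 1 of unstimulated OP9, so its ratio rests on few reads. That library was not shallow, with a depth of 6.09 M estimated reads.

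With anti-IgM the ratio was higher on DL1 than on OP9 at each time. OP9 libraries had 1.51, 2.34 and 2.69 at 20 h, 5.65, 4.92 and 5.71 at 44 h and 5.22, 4.69 and 1.40 at 68 h. DL1 libraries had 7.57, 4.84 and 3.85 at 20 h, 8.30, 6.35 and 7.39 at 44 h and 9.32, 9.83 and 9.47 at 68 h. The stromas did not overlap at any of the 3 times, and the ratio of their means was 2.48, 1.35 and 2.53. At 20 h all 3 OP9 libraries are high-Actb, and at 68 h the ratio was 1.93 without the high-Actb library. Igkc over Iglc2 was also higher on DL1, by 2.34, 1.75 and 1.66 times, again with no overlap. Iglc2 is the lambda constant segment used here, while Iglv1 is known to join mainly to Iglc1 and Iglc3, which were not analysed here, so Igkc over Iglc2 is not a full kappa to lambda ratio. DL1 cells with anti-IgM at 68 h also lay above unstimulated DL1 cells (3.54, 5.31 and 5.16) by 2.04-fold, with lambda V means of 1171 against 2345 TPM and overlapping kappa V sums.

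With LPS the stromas overlapped in this ratio. OP9 libraries with LPS had 4.17, 3.36 and 2.36 at 20 h, 3.42, 3.69 and 4.57 at 44 h and 2.43, 3.27 and 1.22 at 68 h. DL1 libraries with LPS had 3.10, 1.54 and 2.09 at 20 h, 5.07, 3.66 and 5.01 at 44 h and 4.64, 3.97 and 1.43 at 68 h. Ranges overlapped at each of the 3 times, but at 68 h DL1 was 1.51 times OP9 with no overlap once the high-Actb library of each group, the lowest in both, was left out. Unstimulated OP9 libraries spread the widest, at 8.54, 6.29 and 1.95.

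Blimp1+ libraries had kappa to lambda V ratios of 3.67, 3.92 and 4.36, which overlapped with those of the LPS culture at 68 h (means 3.98 and 3.34). For Igkc over Iglc2 the means were 15.9 and 5.87, with no overlap. The lambda V sum was 3.41 to 3.83 times the Iglc2 level in Blimp1+ libraries. Since Iglc2 is not the main partner of Iglv1, these values do not measure the same balance.

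**Figure D3:**
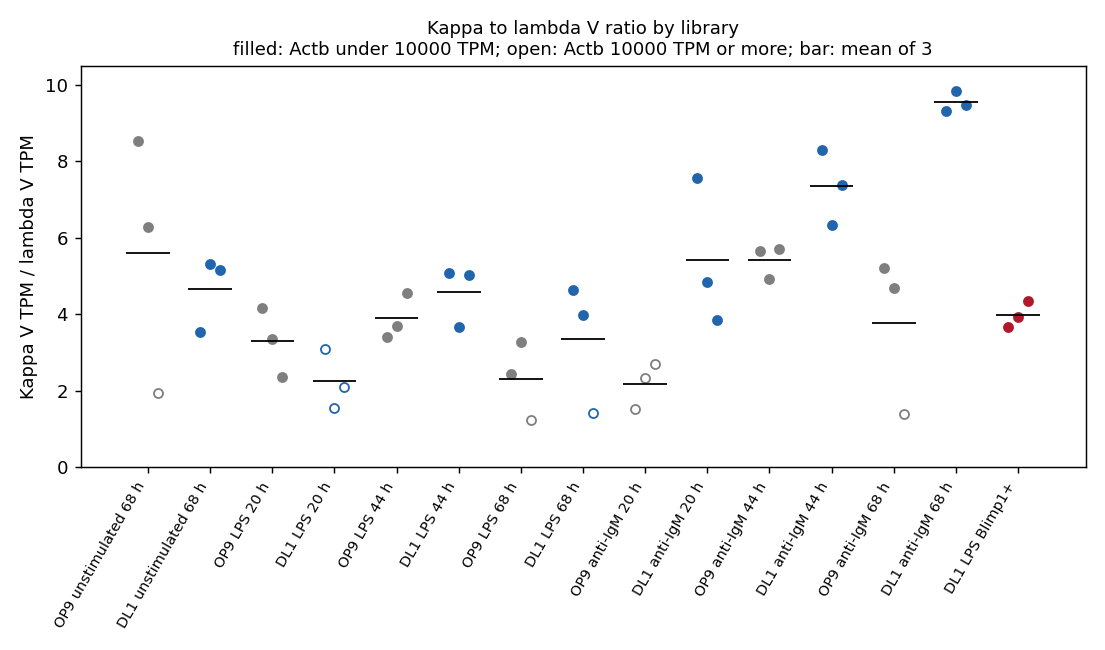
Ratio of summed kappa to summed lambda V segment TPM for each library, by group (OP9 grey, DL1 blue, Blimp1+ red), with the group mean as a bar and open points for the high-Actb libraries. DL1 libraries with anti-IgM at 68 h sit at 9.32 to 9.83, and OP9 libraries with anti-IgM at 20 h sit at 1.51 to 2.69.

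LPS and anti-IgM were compared directly at 44 h, a time with no high-Actb library. On OP9 limma called 2 members lower with LPS and 0 higher (8.63% of all genes called, 4.9% higher and 3.73% lower). Igkv8-21 had 154, 166 and 188 scaled TPM with LPS and 444, 472 and 434 with anti-IgM (log2 fold change -1.41, SE 0.45, adjusted p = 0.043). Igkv15-103 had 40.8, 36.0 and 57.2 against 107, 99.5 and 89.2 (-1.15, SE 0.33, adjusted p = 0.024), a call lost with TPM as deposited and with the authors' deposited log2 table. The groups did not overlap in either segment, and 0 to 1 members were called when a library was left out. On DL1 0 were called (2.91% of all genes called, 1.52% higher and 1.39% lower), with 3 at an unadjusted p below 0.05 and 0 to 1 when a library was left out. The summed light chain V share was lower with LPS on both stromas, 0.595 times that with anti-IgM on OP9 and 0.853 times on DL1, without overlap. In scaled TPM the sums on DL1 overlapped, at 7134 to 7369 with LPS and 7280 to 7821 with anti-IgM. The kappa to lambda V ratio was also lower with LPS, 0.717 times on OP9 and 0.624 times on DL1, without overlap. Igkc over Iglc2, which is not a full kappa to lambda ratio, went the other way: with LPS it was 1.51 times that with anti-IgM on OP9, without overlap, and 1.11 times on DL1, with overlap.

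Evenness, which is 1 when all kappa segments are equally abundant and near 0 when a single segment dominates, ranged from 0.684 to 0.822. Group means spread 1.13-fold, from 0.713 in DL1 cells with LPS at 20 h to 0.804 in OP9 cells with LPS at 44 h, and 1.08-fold without the high-Actb libraries. Expressed as the number of equally abundant segments that would give the same evenness, libraries held 23.0 to 43.4. With LPS, DL1 was below OP9 at 20 h (0.713, all 3 libraries high-Actb, against 0.800) and at 44 h (0.770 against 0.804), without overlap. At 68 h DL1 was above OP9 (0.763 against 0.746), but the nearest libraries of the stromas, both at 0.760, were almost equal. With anti-IgM the stromas overlapped at all 3 times. Blimp1+ cells held 37.8 ± 1.13 equally abundant segments (SD, n = 3) against 33.1 ± 0.423 in the LPS culture at 68 h, without overlap. DL1 cultures with LPS at 44 h held 34.3 ± 3.43 and overlapped with Blimp1+ cells. Of the 44 h and 68 h cultures, only that at 68 h was thus separate from Blimp1+ cells. DL1 cultures with LPS at 20 h, all high-Actb libraries, held 26.4 ± 2.14 and did not overlap with Blimp1+ cells either.

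A single segment led nearly every library. Igkv6-15 was the most abundant kappa segment in 44 of 45 libraries, with 9.79% to 27.2% of kappa V TPM, and Igkv8-21 led the other, replicate 3 of OP9 with anti-IgM at 68 h, with 13.3%. In DL1 libraries with LPS at 20 h Igkv6-15 made up 25.6%, 20.9% and 27.2%, against 12.5%, 11.3% and 10.1% on OP9, with no overlap. The other group made up of high-Actb libraries, OP9 with anti-IgM at 20 h, had 19.7%, 20.9% and 26.2%. Blimp1+ cells had a low share of it, 11.5 ± 1.55% (SD, n = 3) against 16.9 ± 0.757% in the LPS culture at 68 h, although its level rose.

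**Figure D4:**
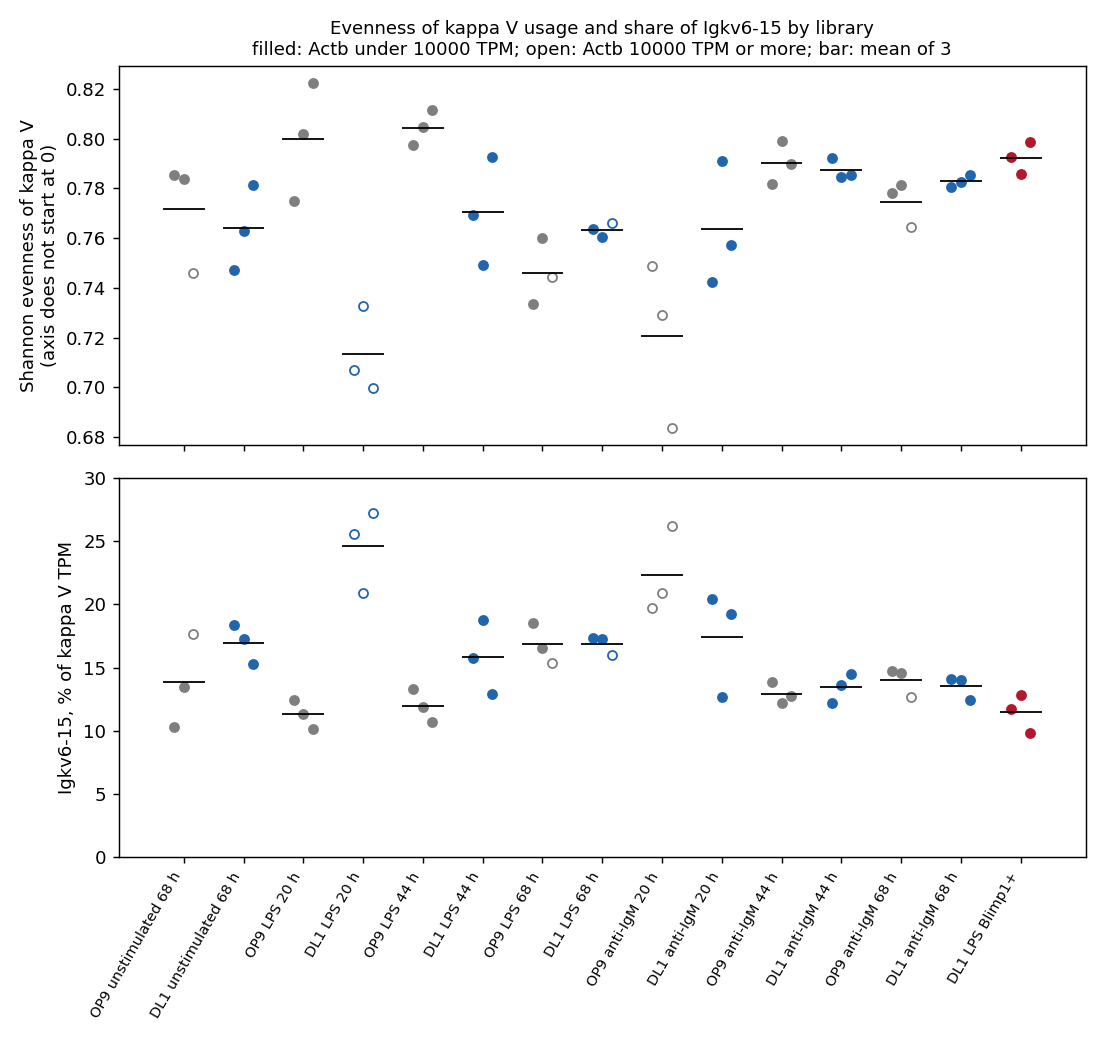
Shannon evenness of the 98 kappa V segments (upper panel, axis not from 0) and Igkv6-15 as a percent of kappa V TPM (lower panel) for each library, by group, with the group mean as a bar and open points for the high-Actb libraries. DL1 libraries with LPS at 20 h have the lowest evenness by group mean, 0.713, and the highest mean Igkv6-15 share, 24.6%, and OP9 libraries with LPS at 44 h have the highest evenness, 0.804.

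Averaged over libraries, Igkv6-15 made up 15.5% of kappa V TPM, Igkv6-23 7.70%, Igkv8-21 4.94%, Igkv8-30 4.12% and Igkv10-96 3.71%. Next came Igkv1-117 (3.19%), Igkv12-46 (3.04%), Igkv14-111 (2.91%), Igkv12-44 (2.87%) and Igkv6-20 (2.73%). These 10 together held 50.8%, and 37 segments held 90%. By family, the 8 Igkv6 segments held 30.8% (23.0% to 39.2% over libraries) and the 26 Igkv4 segments 14.8%. In Blimp1+ cells the Igkv6 family had 25.5 ± 1.72% (SD, n = 3) against 33.7 ± 4.23% in the LPS culture at 68 h, and the Igkv1 family 10.7 ± 1.11% against 6.36 ± 0.727%. Neither family overlapped between these groups.

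Kappa V level was unevenly spread over the locus, and 2 segments carried much of it: Igkv6-15 and Igkv6-23, both on the minus strand and within 500 kb of Igkj1, held 23.2% of kappa V TPM. The 19 segments within 500 kb of Igkj1, the first joining segment, held 40.0% in all of kappa V TPM, and the 20 segments between 500 and 1000 kb held 21.4%. Farther out, 16 segments to 1500 kb held 10.9%, 15 to 2000 kb 5.81%, 11 to 2500 kb 12.4% and the last 17 held 9.49%, so the share did not fall steadily with distance. The 59 segments on the minus strand held 71.9% (64.9% to 81.9% over libraries) and the 39 on the plus strand 28.1%. DL1 cells with LPS at 20 h had the highest minus strand mean, 80.8%. The joining segments Igkj1 to Igkj5 were listed at 0 in every library. Rag1 and Rag2, which carry out the recombination of V segments, did not exceed 1.12 TPM, and neither did Dntt.

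**Figure D5:**
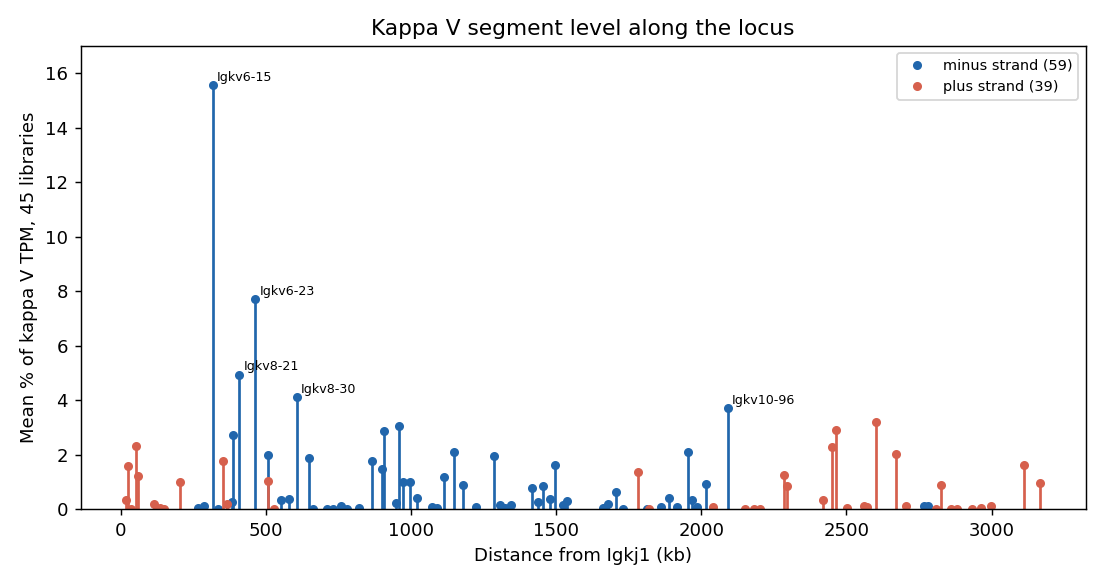
Mean share of kappa V TPM over 45 libraries (percent) for each kappa V segment against its distance from Igkj1 in kb, by strand. Igkv6-15 stands highest at 15.5%, and segments of intermediate distance, between 1500 and 2000 kb, are low, with 5.81% in sum.

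The make-up of the kappa V pool was compared between pairs of libraries as the share of kappa V TPM that both hold in common, segment by segment. Libraries of the same group had a median of 86.2% in common (65.8% to 94.3%) and libraries of different groups a median of 79.3%. Blimp1+ libraries had 92.2% to 94.3% in common with each other. They had 76.3% to 83.5% in common with DL1 cultures with LPS at 68 h and 74.7% to 87.4% at 44 h. High likeness within a group was not particular to Blimp1+ cells: OP9 libraries with anti-IgM at 44 h had 92.2% to 93.7% in common, and DL1 libraries with LPS at 68 h had 78.5% to 90.5%, a range that overlaps with what they had in common with Blimp1+ cells. The lambda pool had too few segments for such a comparison.

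The genes outside the immunoglobulin loci whose level over the 15 group means was most like the summed light chain V level were Ube2j1 and Txndc11 (Pearson r = 0.90 each), Prdm1 (0.88), Bhlha15 and Sec11c (0.87 each), Edem1 (0.86), Myzap and Yipf6 (0.84 each), and Pik3r5 and Amigo2 (0.83 each), out of 9401 genes. The Blimp1+ group, isolated by the product of Prdm1, lies far from the other 14 in this relation. With that group left out, the most alike were Sept1 (0.88) and Rps6ka1 (0.84). These correlations describe 15 group means that share libraries with the rule that chose the members.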

How the data were processed

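PolyA RNA was sequenced from 45 libraries in 15 groups of 3, after SMART-seq cDNA synthesis and Nextera XT library preparation per the labels. The series text and the labels name different SMART-seq kits, and which library ran on the HiSeq and which on the NextSeq is not stated, so neither could be compared with the groups. The authors deposited TPM per gene symbol and a table of log2 values per library. Kallisto, limma and the builds GRCm38 and mm10 are named, without versions, in the submitters' processing notes, and the transcript set and how reads shared by near copies were divided are not given in the sources used here. The TPM listed add up to 92.1% to 96.0% of 1e+06.

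Each library's TPM were scaled by its median-ratio size factor (0.442 to 1.43) and transformed as log2(value + 1), which understates the change of low genes. Genes with at least 1 TPM in at least 3 libraries were tested (15614 of 30317). A limma 3.58.1 model (R 4.3.3, trend and robust moderation) had a mean for each of the 15 groups and used all libraries, with Benjamini-Hochberg adjustment within each of 15 comparisons and calls at an adjusted p below 0.05. It was tested on simulated data. Summed share, kappa to lambda ratio and Shannon evenness were computed from TPM with pandas 2.3.3 (Python 3.11.15). V exons were read from GRCm38 with GENCODE M21, which held all 106 symbols, and compared with Biopython 1.88. Plots used matplotlib 3.10.9. Depth and read numbers were computed from the authors' deposited log2 table. The lowest value of each library was assumed to stand for a gene without reads plus a fixed offset.

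The members, lists, comparisons and settings were chosen with earlier results of these data known. Named members are the 10 kappa segments with the highest mean level, all lambda segments, those nearest the threshold, the leading segment of each library, and in each comparison up to 4 called increases and 4 decreases with the largest change, at least 10 scaled TPM in a group and the 3 libraries of a group outside the range of the other. Some of these changes are not described above, among them the largest named increase of several comparisons. These were Igkv1-115 for DL1 without stimulus (log2 fold change 3.42), Igkv4-63 for LPS on OP9 (3.79) and Igkv10-95 for anti-IgM on OP9 (3.39). None of them was called under every setting. Igkv12-89 was named after its values were seen. No library pair was identical. Same-numbered libraries deviated together (all 3 correlations over 0.1) in 3 of 15 comparisons: the DL1 effect with LPS at 68 h, and the LPS and anti-IgM effects on OP9 at 68 h. In these 3 comparisons replicate 3 of both groups is a high-Actb library. Replicates 1 and 2 of opposite groups also deviated together there (correlations of 0.324 to 0.630). Pairing by replicate number thus cannot be told apart from the high-Actb class.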

Additional observations from a re-analysis of the deposited data

Results flagged for a closer look

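Several differences between DL1 and OP9 in a measure over the members pointed opposite ways at different times or stimuli, with the 3 libraries of a stroma all above or all below those of the other. None of these differences between times or stimuli was tested. The DL1 to OP9 ratio of kappa V evenness was 0.892 with LPS at 20 h and 0.958 at 44 h, but 1.02 at 68 h, where the nearest libraries of the stromas were both at 0.760. For the summed light chain V share the ratio was 3.90 without stimulus at 68 h, 1.28 with LPS at 20 h, 1.10 with LPS at 44 h and 1.79 with anti-IgM at 20 h, but 0.769 with anti-IgM at 44 h. With LPS at 68 h the share overlapped, but the sum in scaled TPM was lower on DL1 without overlap. At 20 h all 3 DL1 libraries with LPS and all 3 OP9 libraries with anti-IgM are high-Actb libraries and those of the other stroma are not, so class and stroma cannot be told apart in the 20 h values. Groups of 3 are too small for a check of single outlying libraries.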

How the results depend on the processing

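Of 298 values of named members under other settings, 249 stayed called in the same direction, 49 kept the direction and lost the call, and 0 turned; of 34 named changes, 15 were called under every setting. Of 195 counts of called members, 157 stayed within 1.5 times. Counts that were 0 and stayed 0 are among these, so the figure overstates how stable the other counts were. For LPS on DL1 the count of 0 became 1 with TPM as deposited, 1 with size factors computed without immunoglobulin genes, 1 with a filter at 5 TPM, all lower with LPS, and 3 without the high-Actb libraries, all higher. For anti-IgM on OP9 the authors' deposited log2 table gave 20 in place of 35. For anti-IgM on DL1 the count of 4 became 1 with TPM as deposited, 0 with the authors' log2 table, 1 with a pseudocount of 0.1, 1 with no filter and 8 without the high-Actb libraries (7 higher, 1 lower). For LPS against anti-IgM on OP9 the count of 2 became 1 with TPM as deposited, 1 with the authors' log2 table and 1 with no filter. The evenness spread was 1.08 without the high-Actb libraries and 2.23 by the inverse Simpson index. With Igkc over Iglc2, which leaves out the other lambda constant segments, in place of the V ratio, LPS against anti-IgM at 44 h reversed, to 1.51 on OP9 and 1.11 on DL1. The cause was not tested.

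Leaving out 1 library gave 17 to 48 members for the DL1 effect without stimulus, 3 to 7, 0 to 0 and 0 to 0 with LPS at 20, 44 and 68 h, and 7 to 21, 0 to 0 and 0 to 1 with anti-IgM. It gave 19 to 48 for LPS and 11 to 43 for anti-IgM on OP9, 0 to 2 and 0 to 3 on DL1, 54 to 63 for Blimp1+ cells, and 0 to 1 for LPS against anti-IgM on each stroma. Leaving out 1 replicate number from all groups at once, the spreads over groups were 16.2 to 30.2 for the share, 4.97 to 5.32 for the ratio and 1.11 to 1.15 for evenness. With the replicate block the counts were 47, 6, 0, 0, 19, 0 and 0 for the DL1 effects in the same order, 42 and 0 for LPS on OP9 and DL1, 37 and 3 for anti-IgM, 62 for Blimp1+ cells and 2 and 0 for LPS against anti-IgM, so no count moved by over 1.5 times.

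The number of kappa reads limits rare segments: the library with the fewest had 418, so a value of 0 there does not show that a rare segment was absent.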
